A study of Mus musculus with 4 samples.

Results

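This account covers 10 mouse genes whose products fill the granules or the cytosol of neutrophils: S100a8, S100a9, Lcn2, Ltf, Mmp8, Mmp9, Camp, Ngp, Elane and Mpo. They were chosen by name, with earlier results of these data known, so counts over them describe the set and do not test it. Every probe set that the array's annotation assigns to one of them was taken. This gave 11 probe sets (2 for Mmp9, 1 for each other gene) of 45037 tested, and 10 of 18193 genes with a probe set of a single symbol. RNA of double-positive (DP) cells, immature T-lineage cells that carry both CD4 and CD8, was hybridized to 4 Affymetrix Mouse 430 2.0 arrays. The normal group held 2 arrays of DP cells from the thymus of wild-type mice, and the tumour group held 2 arrays of DP cells from a peripheral tumour (thymoma) that over-expresses Notch1-IC, the active intracellular piece of Notch1. The labels give both groups the C57/BLACK6 background and the tumours the genotype T-ALL (T-cell acute lymphoblastic leukaemia). The sources used here do not give the promoter that drives Notch1-IC, the ages of the mice, any pooling or the way the DP cells were isolated. Normal and tumour cells also came from different sites, so site and transformation cannot be told apart.

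Neutrophils are short-lived phagocytes that kill microbes with proteins stored ready-made in granules. The granules are filled in sequence while the cell matures in bone marrow: primary (azurophil) granules receive Mpo and Elane early, specific granules receive Ltf, Camp, Ngp, Lcn2 and Mmp8 later, and gelatinase granules receive Mmp9 last. S100a8 and S100a9 are calcium-binding proteins that pair to form calprotectin, which sequesters zinc and manganese and makes up much of the neutrophil's cytosolic protein. Monocytes also make S100a8 and S100a9, macrophages can make Mmp9 and Lcn2, and none of these genes belongs to the usual programme of a DP thymocyte.

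The labels and the arrays were compared first. One label field, the sample type, describes all 4 samples as tumour cells, whereas title, source and genotype name 2 of them normal, and the titles were followed. Notch1 had 6417 and 7155 intensity units in the tumour arrays against 1098 and 1104 in the normal arrays on its more intense probe set, a difference of 2.62 ± 0.07 (log2, SE). All DP marker probe sets lay above background in the normal arrays, and in the tumour arrays all did so on at least 1 array. Of those 20 probe sets (10 genes), 17 fell and 1 rose, with Cd4 at 183 and 188 units in the tumour arrays against 799 and 778 in the normal ones on the more intense of its 2 probe sets. Across the 10772 probe sets whose log2 intensity averaged 7 or more, the correlation was 0.990 between the normal replicates, 0.991 between the tumour replicates and 0.819 to 0.826 across the groups. Probe sets are not independent replicates. The labels do not tie the replicates to separate animals, so a p-value reflects only how far these samples spread, and that spread may be technical.

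The promoters of members that rose together are shown here beside that of Mmp8, which was at or below background on all 4 arrays, because the same short motif occurs in both kinds. Each sequence is the 250 bases before the gene's start from the RefSeq table of GRCm38.p6, read 5′ to 3′ on the gene's strand, and 9 of the 10 genes were matched. Capitals mark matches to TTNNGNAA, the core letters bound by C/EBP transcription factors, searched on both strands (the other strand reads TTNCNNAA).
S100a8: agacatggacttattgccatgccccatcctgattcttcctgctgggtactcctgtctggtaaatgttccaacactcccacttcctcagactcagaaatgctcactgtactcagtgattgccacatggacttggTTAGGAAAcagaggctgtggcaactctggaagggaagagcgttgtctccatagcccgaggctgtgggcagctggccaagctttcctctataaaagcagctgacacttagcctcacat
S100a9: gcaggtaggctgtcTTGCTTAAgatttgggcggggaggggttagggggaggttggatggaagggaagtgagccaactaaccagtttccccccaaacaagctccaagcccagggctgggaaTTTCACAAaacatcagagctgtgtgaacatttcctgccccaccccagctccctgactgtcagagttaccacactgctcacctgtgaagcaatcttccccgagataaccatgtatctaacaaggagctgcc
Ngp: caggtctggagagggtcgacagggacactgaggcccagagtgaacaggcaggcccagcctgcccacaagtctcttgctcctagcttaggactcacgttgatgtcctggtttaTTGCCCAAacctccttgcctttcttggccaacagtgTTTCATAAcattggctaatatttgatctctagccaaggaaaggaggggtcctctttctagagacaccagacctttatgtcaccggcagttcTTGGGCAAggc
Ltf: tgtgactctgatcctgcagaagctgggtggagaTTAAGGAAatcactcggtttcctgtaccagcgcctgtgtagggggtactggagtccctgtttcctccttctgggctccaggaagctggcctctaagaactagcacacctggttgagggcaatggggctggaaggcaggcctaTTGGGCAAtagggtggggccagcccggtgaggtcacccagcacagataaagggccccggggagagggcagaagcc
Mmp8: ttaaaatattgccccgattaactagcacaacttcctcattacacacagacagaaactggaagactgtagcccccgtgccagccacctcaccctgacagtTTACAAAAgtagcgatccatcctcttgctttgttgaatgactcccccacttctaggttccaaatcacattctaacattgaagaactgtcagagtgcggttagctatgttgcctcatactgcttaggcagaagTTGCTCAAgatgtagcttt
The 250-base window of S100a8 lies at chr3:90668821-90669070 (plus strand), that of S100a9 at chr3:90695722-90695971 (minus strand), that of Ngp at chr9:110419558-110419807 (plus strand), that of Ltf at chr9:111019042-111019291 (plus strand) and that of Mmp8 at chr9:7558179-7558428 (plus strand). The motif stood in 6 of the 9 member promoters, against 36.8% of all 32851 promoter windows of the same length. Ngp had 3 matches and S100a9, Ltf and Mmp8 had 2 each, while S100a8 and Lcn2 had 1 each. It was not found in the windows of Camp, Elane and Mpo, so genes with and without a match stood among those that rose and among those that did not. GAGGAA, a purine-rich core bound by ETS factors such as PU.1 (both strands), also stood in 6 of the 9 windows, against 23.3% of all windows. The letters TATAAA were found in 1 of the 9, that of S100a8, where they start 30 bases before the gene's start, against 12.4% of all windows. No match of one motif overlapped a match of another in these 9 windows.

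The genes are scattered over 5 chromosomes, with S100a8 and S100a9 as direct neighbours on chromosome 3, with 0 protein-coding genes between them. Chromosome 9 holds 4 of the 10, Mmp8, Camp, Ngp and Ltf. On it, 8 protein-coding genes separate Camp from Ngp and 20 separate Ngp from Ltf. Lcn2 and Mmp9 lie on chromosome 2, Elane on 10 and Mpo on 11.

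Comparing tumour with normal DP cells, 7 of the 10 genes rose (S100a8, S100a9, Mmp9, Camp, Lcn2, Ltf and Ngp), and the primary granule genes Mpo and Elane and the collagenase Mmp8 did not pass the test. In probe sets, 8 of 11 rose and 0 fell (limma, adjusted p below 0.05), and at an unadjusted p below 0.05 the number was also 8. Of all probe sets tested, 11.3% were called higher and 11.5% lower. The median difference of the 11 was 3.27 (log2), against -0.02 over all probe sets. That median is the fitted value of Lcn2, both of whose normal values lay below background, so its size is uncertain. In 8 of the 11 both tumour arrays lay above both normal arrays, as did 27.6% of all probe sets. Without tumour replicate 1, or without tumour replicate 2, 5 of the 11 were called higher. With limma's default prior, which drops both the trend of the variance with the level and the robust option, 0 of the 11 and 0 of all probe sets passed, with 7 and 11337 at an unadjusted p below 0.05. With the trend alone 8 of the 11 rose, and with the robust option alone 0 did (6 at an unadjusted p below 0.05). In RNA of a cell population, fewer cells of a type and less RNA per cell cannot be told apart.

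**Figure D1:**
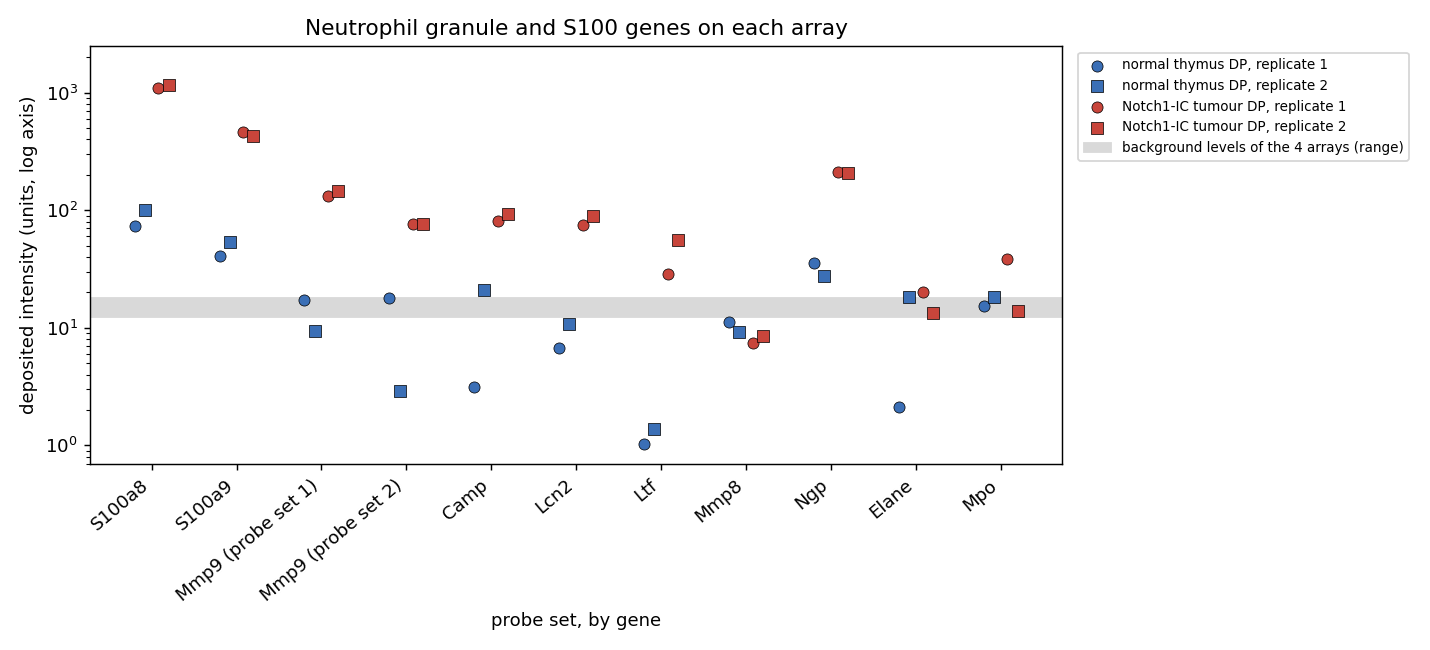
Deposited intensity (log axis) of each of the 11 probe sets on the 2 normal (blue) and 2 tumour (red) arrays, with the range of the 4 background levels in grey. For S100a8, S100a9, both Mmp9 probe sets, Camp, Lcn2, Ltf and Ngp the red points lie above the blue ones, while those of Elane and Mpo overlap near background and all 4 points of Mmp8 lie below the grey band.

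The S100 genes were above background on every array. The background level of an array was taken as the maximum over 27 bacterial control probe sets that carried no spike, and it ranged from 12.3 to 17.8 intensity units. S100a8 measured 73.3 and 100.03 units in the normal arrays and 1100 and 1164 in the tumour arrays. The tumour arrays were close to each other and far above both normal arrays. S100a8 rose by 3.72 ± 0.16 (log2, SE, n = 2 arrays per group), which is 13.2-fold (limma adjusted p = 4.49e-07), and 1.09% of all probe sets rose by more. Its probe set is of the _s_at class, whose probes can match more than the named transcript. S100a9, its partner in calprotectin, measured 40.5 and 53.5 units in the normal arrays and 467 and 425 in the tumour arrays, again with no overlap. It rose by 3.26 ± 0.19, or 9.58-fold (limma adjusted p = 2.34e-06). The 95% confidence intervals of the 2 differences, 3.37 to 4.08 for S100a8 and 2.84 to 3.68 for S100a9, overlap.

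Mmp9, the gelatinase that cuts denatured collagen, rose on both of its probe sets. On the more intense of them the values were 17.2 and 9.32 units in the normal arrays and 133 and 145 in the tumour arrays. On the other they were 18.02 and 2.93 units in the normal arrays and 75.8 and 76.05 in the tumour arrays. In both cases normal replicate 1 lay just above its background level and normal replicate 2 below it. The rises were 3.46 ± 0.36 (limma adjusted p = 9.7e-05) and 3.39 ± 0.75 (adjusted p = 0.00847). With dim values raised to the background level, they were 3.26 and 2.35. On the less intense probe set the difference was 4.70 without normal replicate 1 and 2.07 without normal replicate 2, and its call ended without tumour replicate 1 (adjusted p = 0.0889) or tumour replicate 2 (adjusted p = 0.0963).

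Specific granule genes formed the largest class, and 4 of its 5 members rose, beside 11.3% of all probe sets called higher. Ngp, a granule protein related to the cathelicidins and cystatins, measured 35.7 and 27.8 units in the normal arrays and 213 and 207 in the tumour arrays. It was above background on all 4 arrays, with no overlap between groups. Ngp rose by 2.74 ± 0.23, or 6.68-fold (limma adjusted p = 2.02e-05).

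Lcn2, which starves bacteria of iron by binding their siderophores, measured 6.72 and 10.8 units in the normal arrays and 75.2 and 90.0 in the tumour arrays. Both normal arrays lay below their background level, so only a bound on the fold can be given, and Lcn2 in tumour was at least 5.88-fold higher (limma adjusted p = 0.000411). Camp, the precursor of the antimicrobial peptide cathelicidin, measured 3.15 and 21.0 units in the normal arrays and 80.6 and 93.4 in the tumour arrays. The normal arrays disagreed, with replicate 1 below background and replicate 2 above it, and both lay below the tumour arrays. Camp rose by 3.42 ± 0.75 (adjusted p = 0.00842), or by 2.25 with dim values raised to the background level. The difference for Camp was 4.78 without normal replicate 2 and 2.05 without normal replicate 1, and its call ended without tumour replicate 1 (adjusted p = 0.0804) or tumour replicate 2 (adjusted p = 0.106).

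Ltf, the iron-binding lactoferrin, measured 1.02 and 1.38 units in the normal arrays and 28.5 and 55.8 in the tumour arrays. Both normal arrays were far below background and both tumour arrays above it, though tumour replicate 2 was well above replicate 1. Ltf was at least 2.85-fold higher (limma adjusted p = 0.00644). The fitted difference of 5.07 ± 1.06 is larger than that bound because it rests on values under the background level, and it was 1.51 with dim values raised to that level. Its call ended without tumour replicate 1 (adjusted p = 0.0591) or tumour replicate 2 (adjusted p = 0.116). Mmp8, the neutrophil collagenase, measured 11.2 and 9.22 units in the normal arrays and 7.40 and 8.58 in the tumour arrays. All 4 values lay below background, so no fold is given, and although both tumour values were under both normal ones, 29.1% of all probe sets share that order. It was the only one of the 5 specific granule probe sets below background on both tumour arrays.

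The primary granule genes were near background in both groups. Mpo, the enzyme that makes hypochlorous acid, measured 15.3 and 18.2 units in the normal arrays and 38.8 and 13.9 in the tumour arrays. Tumour replicate 1 was the highest of the 4 values and tumour replicate 2 the lowest, so the groups overlap. The difference was 0.48 ± 0.60 (limma adjusted p = 0.658), with a 95% confidence interval of -0.87 to 1.82. Elane, neutrophil elastase, measured 2.13 and 18.3 units in the normal arrays and 20.1 and 13.5 in the tumour arrays, again overlapping. Its difference was 1.40 ± 1.08 (adjusted p = 0.440), with an interval of -1.03 to 3.83. These intervals are wide: that of Elane includes rises as large as those of S100a8 and S100a9, and that of Mpo ends below the intervals of both. The difference between granule classes was not tested.

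**Figure D2:**
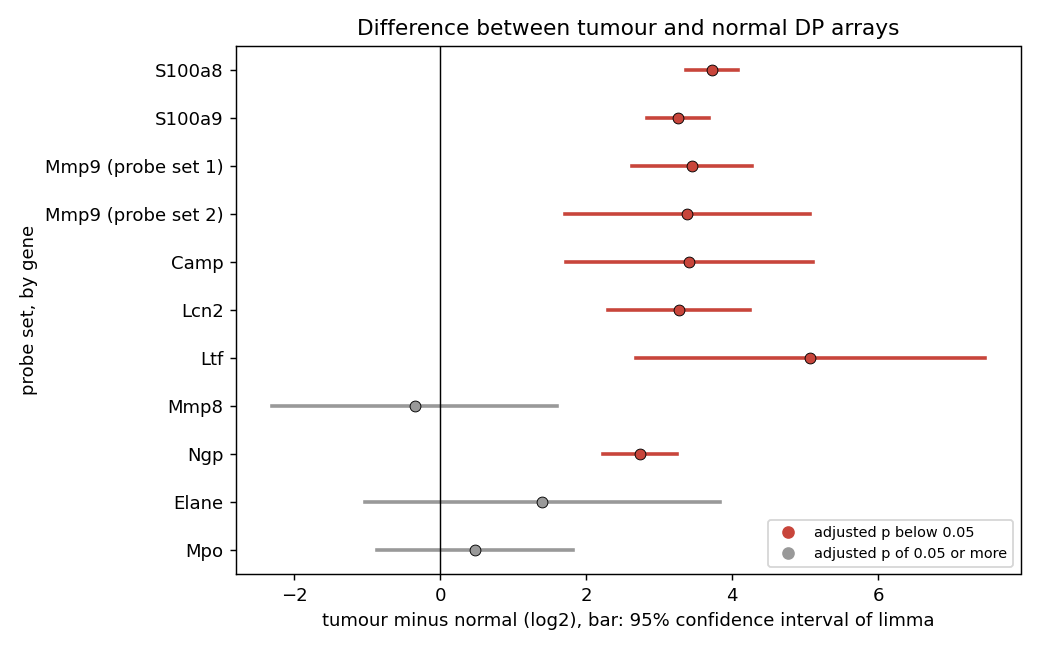
Difference between tumour and normal arrays (log2, points) with limma's 95% confidence interval (bars) for the 11 probe sets, red where the adjusted p was below 0.05. The 8 red intervals lie above 0, the narrowest being that of S100a8 (3.37 to 4.08), while those of Mmp8, Elane and Mpo include 0.

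Among the 7 genes that rose, the fitted differences lay between 2.74 (Ngp) and 5.07 (Ltf). The value of Ltf rests on normal values under background, and with dim values raised to that level it was 1.51, the smallest of the 7. The standard error was 0.16 for S100a8, 0.19 for S100a9 and 0.23 for Ngp, which were above background there. Where at least 1 normal array was below background, it was 0.36 and 0.75 for the Mmp9 probe sets, 0.43 for Lcn2, 0.75 for Camp and 1.06 for Ltf. Intensities of different probe sets are not on a common scale, so the levels of the genes are not ranked. By the 4 array values, each taken relative to the probe set's mean, the genes nearest to S100a8 were D430041D05Rik, Ctnnd1 and Gm4371, at distances of 0.08, 0.12 and 0.18 (log2). With 4 arrays in 2 groups, such nearness reflects little more than a similar difference between the groups, of 3.66, 3.70 and 3.74.

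Other genes of neutrophils gave a mixed picture. Of 30 further granule, surface and oxidase genes listed, 22 were measured by 29 probe sets, of which 5 rose and 4 fell, with a median difference of 1.89. The shares over all probe sets were 11.3% called higher and 11.5% lower. Chil3, a chitinase-like protein of myeloid cells, was at least 82.1-fold higher, and Lyz2, the lysozyme of myeloid cells, rose by 3.29 ± 0.20 (limma adjusted p = 3.52e-06). Padi4, which citrullinates histones, fell by 2.17 ± 0.17, and Itgb2, an integrin chain that lymphocytes also carry, fell by 1.12 ± 0.12. The other genes of this list are named here after their values were seen. Csf3r, the receptor for the granulocyte growth factor G-CSF, was 31.9 and 24.3 units in the tumour arrays and below background in the normal arrays (at least 1.99-fold higher, adjusted p = 0.0319). Cybb and Ncf1, subunits of the phagocyte oxidase, were at least 6.34-fold and at least 5.16-fold higher on 1 probe set each, while their other probe sets did not pass, and Cyba and Cxcr4, which are also expressed in thymocytes, fell by 0.81 and 0.39. Prtn3 and Ctsg, the proteases that share primary granules with Elane, did not pass the test (adjusted p = 0.166 and adjusted p = 0.137). Their fitted differences were 2.11 and 2.82, with all normal values below background, so the sizes are uncertain. For each, both tumour arrays lay above both normal arrays, as did 27.6% of all probe sets. Cxcr2, a chemokine receptor of mature neutrophils, lay at or below background on all 4 arrays, and 7 of the 29 probe sets in all did so.

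The transcription factors that guide granulocyte development were also listed. Of 20 probe sets for 9 genes, 5 rose and 3 fell, with a median of 0.22, beside 11.3% higher and 11.5% lower over all probe sets. Cebpb, a C/EBP factor active in mature and stimulated myeloid cells, rose by 2.29 ± 0.15 (limma adjusted p = 4.6e-06) on 1 of its 2 probe sets, while the other, also above background on all arrays, differed by 0.66 (adjusted p = 0.281). Irf8, a factor of monocyte and dendritic cell development, rose by 2.17 ± 0.30. Runx1 had 6 probe sets, of which 1 fell, by 1.22 ± 0.11, and 1 rose, by 0.80. The rest did not pass, among them the most intense, which differed by -0.15 (limma adjusted p = 0.271). Gfi1, a repressor used in granulocytes and in thymocytes, fell by 0.73 ± 0.11. Cebpa, which starts the granulocyte programme, is named after its value was seen and was at least 3.94-fold higher (adjusted p = 0.00573).

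Other members of the S100 family moved both ways. Of 16 probe sets for 11 genes, 3 rose and 4 fell, with a median of 0.21, beside 11.3% higher and 11.5% lower over all probe sets. The list also held S100pbp, which encodes a protein that binds an S100 protein and is no family member, and neither of its probe sets passed. S100a4 rose by 5.78 ± 0.82 (limma adjusted p = 0.000653) and S100a6 by 4.64 ± 0.36 (adjusted p = 1.43e-05), each with 1 of the 2 normal arrays below background. S100a10, the partner of annexin A2, went the other way and fell by 3.40 ± 0.09, a 10.6-fold difference (3191 and 3324 units in the normal arrays, 317 and 299 in the tumour arrays). S100a13 fell by 1.40 ± 0.09.

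Of 23 probe sets for 11 genes listed as receptors and partners of the proteins, 3 rose and 3 fell, with a median of 0.91. Over all probe sets 11.3% were called higher and 11.5% lower, so these counts are not read as a result about the list. At or below background were 15 of the 23 on both normal arrays and 10 on all 4 arrays. Lrp1, a scavenger receptor that takes up lactoferrin, rose by 2.94 ± 0.38 (limma adjusted p = 0.000359) on 1 of its 2 probe sets. The other Lrp1 probe set did not pass (1.44 with adjusted p = 0.342). P2rx7, an ATP receptor that cathelicidin can engage, rose by 2.82 ± 0.30 on 1 of its 3 probe sets, while the others did not pass (1.42 with adjusted p = 0.0714 and 0.91 with adjusted p = 0.724). Bsg, a receptor for S100a9, fell by 0.39 ± 0.10. Ptger4, whose link to these proteins is not given here, fell by 0.49 ± 0.10 and 1.66 ± 0.33 on its 2 probe sets. Those were 2 of the 3 probe sets in the list that fell. The receptors of calprotectin are named after their values were seen. Ager was at least 2.50-fold higher on 1 of its 2 probe sets (limma adjusted p = 0.0114) and lay at or below background on all 4 arrays on the other, and Tlr4 did not pass on any of its 4 probe sets.

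Inhibitors of the granule proteases included some that rose. Of 21 probe sets for 10 genes, 6 rose and 1 fell, with a median of 0.55. Slpi, which inhibits elastase, rose by 4.37 ± 0.29 (limma adjusted p = 5.06e-06), from 19.1 and 11.5 units in the normal arrays to 317 and 296 in the tumour arrays. Timp2, an inhibitor of matrix metalloproteases, had 6 probe sets, of which 4 rose, 1 of them by 2.02 ± 0.10. Those 4 were most of the 6 probe sets in the list that rose. Cst3, cystatin C, fell by 1.51 ± 0.10. Among 23 probe sets for 13 other matrix metalloprotease genes, 2 rose and 0 fell, with a median of 0.26. Beside both lists, 11.3% of all probe sets were called higher and 11.5% lower. Mmp14, a membrane-bound member of the family, rose by 2.22 ± 0.19 (limma adjusted p = 2.7e-05) on 1 of its 3 probe sets. The others of Mmp14 did not pass (adjusted p = 0.242 and adjusted p = 0.235). Mmp13, named after its value was seen, was at least 2.88-fold higher.

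**Figure D3:**
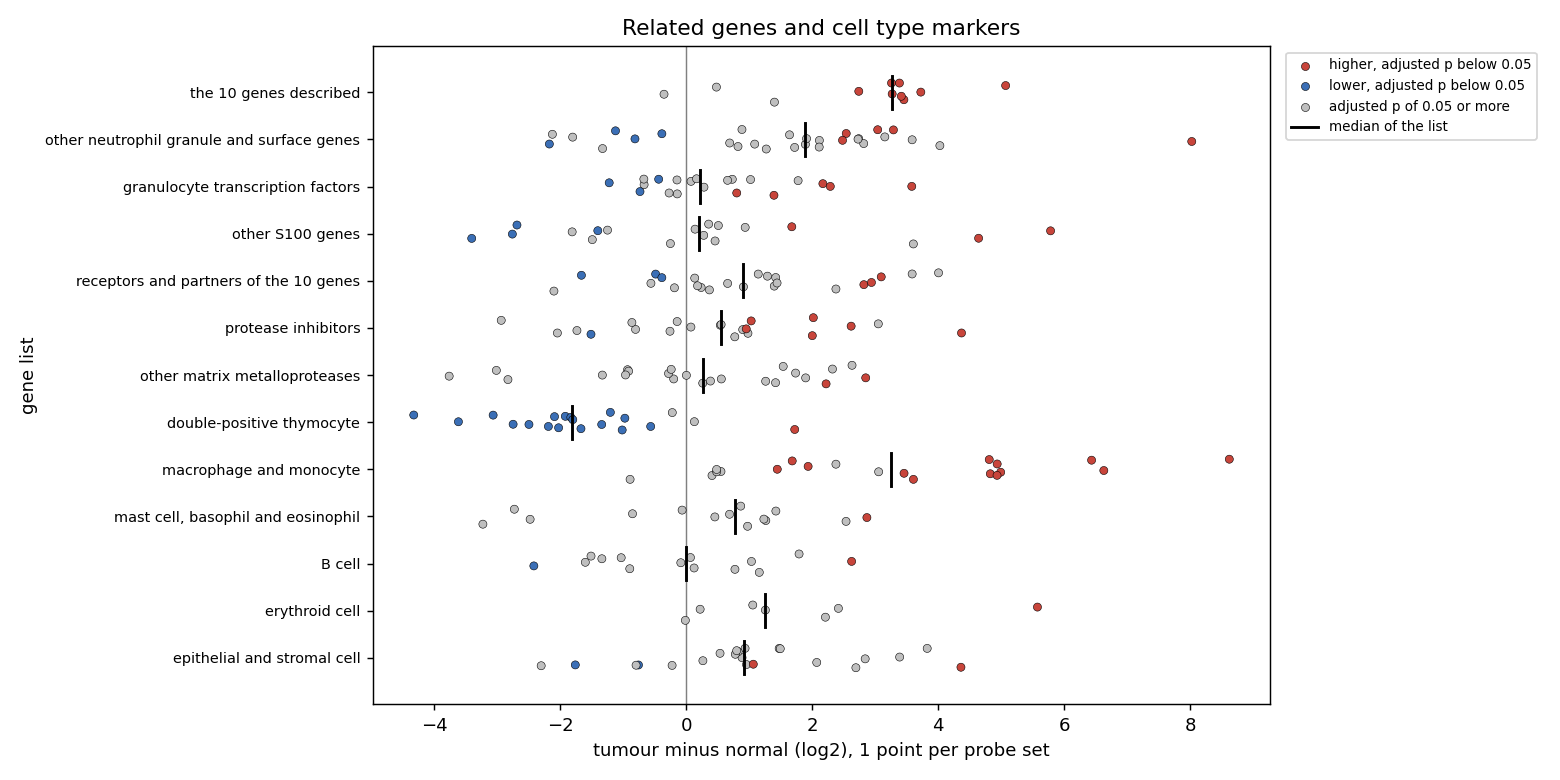
Difference between tumour and normal arrays (log2, 1 point per probe set) for the 10 genes, 6 lists of related genes and 6 lists of cell type markers, with black lines at the medians. Medians of 3.27 for the 10 genes and 3.26 for the macrophage and monocyte markers lie farthest to the right, and that of the DP markers (-1.82) farthest to the left. On both normal arrays, 3 of the 11 and 12 of the 20 probe sets behind the first 2 medians were at or below background, so their sizes are uncertain.

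Markers of other cells were measured on the same arrays, where 11.3% of all probe sets were called higher and 11.5% lower. Of 20 macrophage and monocyte probe sets (12 genes), 13 rose and 0 fell, with a median of 3.26 and summed intensities of 183 and 225 units in the normal arrays against 2492 and 2663 in the tumour arrays. In the tumour arrays, 2 of these 20 probe sets lay at or below background on both, against 12 in the normal arrays. The list of other neutrophil genes summed to 8312 and 7403 units in the normal arrays and 6570 and 6341 in the tumour arrays, sums in which Cxcr4, Cyba and Itgb2 are the largest terms. Mast cell, basophil and eosinophil markers had 1 of 14 probe sets higher, at 123 and 143 units against 235 and 199 in sum, and epithelial and stromal markers had 2 of 22 higher and 2 lower, at 507 and 434 against 431 and 534. Of 14 B cell probe sets, 1 rose and 1 fell (sums of 413 and 418 against 247 and 229), and of 7 erythroid ones 1 rose (54.9 and 29.8 against 164 and 193). Cd79b, the B cell probe set that fell, alone gave 321 and 294 units of the normal sums and 52.05 and 63.47 of the tumour sums. The largest term of the epithelial and stromal sums was Pecam1, at 302 and 229 against 155 and 156. Such sums therefore depend on single probe sets. The part of cells other than DP cells in the rises of the S100 and granule genes was not tested.

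RNA quality measures moved with the groups as well. Control probe sets at the 3' end relative to those at the 5' end gave ratios of 1.28 and 1.20 in the normal arrays and 2.46 and 2.53 in the tumour arrays for beta-actin, and 0.91 and 0.90 against 1.84 and 1.85 for Gapdh. Bacterial hybridization controls were 0.60 (log2) higher in the tumour arrays. Scaling the arrays to them moved the median of all probe sets from -0.02 to -0.63 and the share of higher among called probe sets from 49.5% to 15.2%, with 4.61% of all probe sets called higher. Under that scaling the same number of member probe sets, 8, was called higher, with S100a8 at 3.12, S100a9 at 2.66 and Ngp at 2.14. The part of RNA quality in these differences was not tested.

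**Figure D4:**
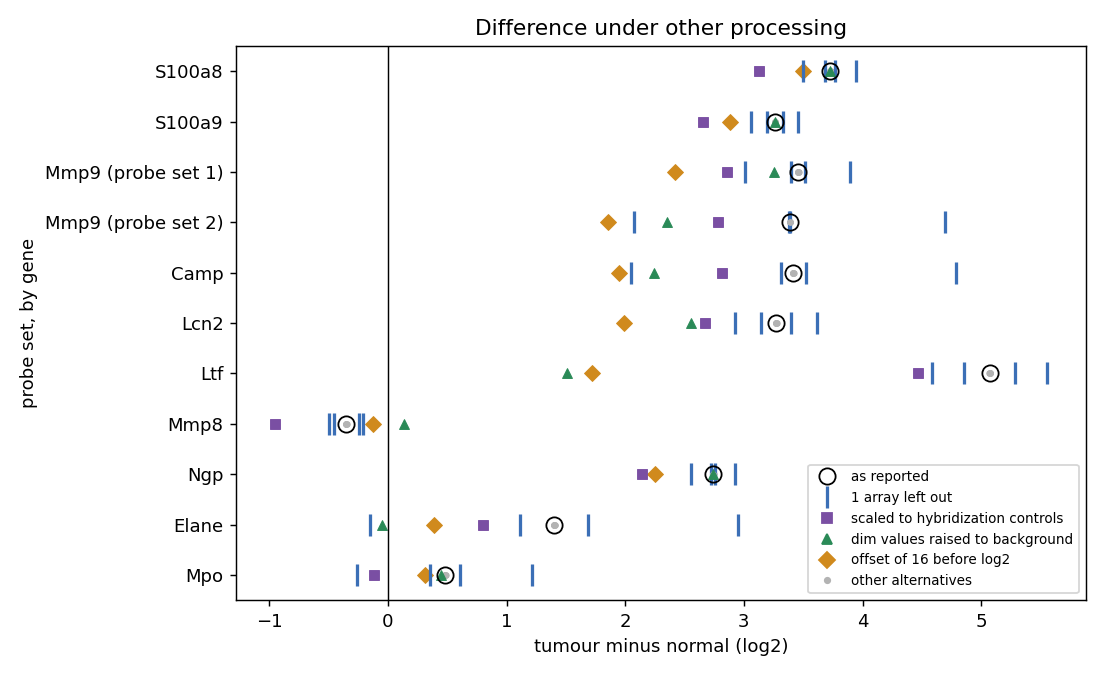
Difference between tumour and normal arrays (log2) for each probe set as reported (open circles), with 1 array left out (blue bars), scaled to hybridization controls (squares), with dim values raised to background (triangles), with an offset of 16 (diamonds) and under the remaining alternatives (grey dots). S100a8 stays between 3.12 and 3.95, whereas Ltf spreads from 1.51 to 5.55 and Mpo and Elane lie on both sides of 0. Mmp8 lies above 0 only with dim values raised to background, where its value is just the difference between the arrays' background levels.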

How the data were processed

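The authors deposited 1 linear intensity per probe set and array, and the submitters' processing notes name RMA, without a version. Values reach down to 0.08 units, lower than RMA usually gives, which leaves the summary method uncertain, also for values under background such as those of Ltf. The 4 columns share their highest value and nearly their quartiles, so they had been brought to nearly one distribution, which hides any shift common to all genes. Arrays were grouped by title. Gene names came from GEO's annotation of the platform. After removal of 64 controls, 34945 of 45037 probe sets had 1 symbol, and all 10 members matched RefSeq by Entrez number.

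Here log2 was taken with no offset or filter, and limma 3.58.1 in R 4.3.3 (lmFit, then eBayes with the trend and robust options, because the replicate SD had a median of 1.31 in the dimmest 25% and 0.10 in the brightest 25% of probe sets) tested tumour against normal on all 4 arrays, with Benjamini-Hochberg adjustment over 45037 probe sets and called features at 0.05. The fit had 2 residual degrees of freedom and a median of 7.27 from the prior. If neither array of a group exceeded background, the fold is "at least" the other group's mean over the dim arrays raised to their background levels. The number of arrays limits the precision. Alternatives were another prior, 1 probe set per gene, an offset, 3 normalizations, 2 filters, a stricter threshold, a replicate block, leaving out arrays and, chosen after seeing the data, the trend or robust option alone and raising dim values to background.

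Members, lists and the prior were chosen with earlier results of these data known. Named genes were all members, up to 4 called genes with the largest change per list (among those whose higher group averaged at least 7, log2), and the 3 nearest to S100a8. Genes listed without a probe set of 1 symbol were not analysed here.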

Additional observations from a re-analysis of the deposited data

How the results depend on the processing

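With limma's default prior, which uses neither the trend nor the robust option, 0 member probe sets, 0 of all probe sets and 0 of the related and marker lists were called in either direction. At an unadjusted p below 0.05 that fit gave 7 of the 11 members and 11337 of all, and the adjusted p was 0.0684 for S100a8 and S100a9. With the robust option alone all these counts were also 0 (6 members and 10614 of all at an unadjusted p below 0.05), and with the trend alone 8 members rose, 5170 of all probe sets rose and 5225 fell. With 1 probe set per gene the counts of all features were 3156 higher and 2251 lower, 7 of 10 members rose, and 11 marker probe sets were lower. With the default prior as well, they were 759 higher and 401 lower, with 6 members higher (Camp did not pass), 10 and 4 related genes higher and lower, and 10 and 7 markers. These fits test fewer features. Spike scaling gave 2074 higher and 11539 lower probe sets. Between the fits that each left out 1 array, 5 to 8 members rose, all probe sets called ranged from 3325 to 3983 higher and from 3184 to 4386 lower, related lists from 17 to 21 higher and from 12 to 13 lower, and marker lists from 13 to 18 higher and from 18 to 20 lower. The members lost were Camp, Ltf and the less intense Mmp9 probe set, without either tumour array, where the lone tumour array is assumed to vary like the normal ones.

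S100a8, S100a9, Ngp, Lcn2 and the more intense Mmp9 probe set kept their direction in all 18 alternatives and lost the call only over all probe sets with the default prior or with the robust option alone. Alternatives of the prior, threshold, filter, replicate block or 1 probe set per gene leave the fitted difference unchanged. A direction could turn only with an offset, another normalization, an array left out or dim values raised. With an offset of 16, Ltf differed by 1.72, Camp by 1.95 and Lcn2 by 1.99. Directions turned for Mpo with spike scaling (-0.12), which lowers every difference by 0.60, and without tumour replicate 1 (from -0.26 to 1.22 over the fits that left out an array), Elane without normal replicate 1 (from -0.15 to 2.95 likewise) and with dim values raised to background (-0.051), and Mmp8 with the latter (0.14), where all 4 values are replaced, so that this value is only the difference between the arrays' background levels. Without probe sets under the 50th percentile of mean level, Ltf, Elane and Mmp8 were not tested. Then 7 of 8 member probe sets rose, beside 24.2% of the 22519 tested. The mean is over all 4 arrays, so probe sets dim in the normal arrays could pass through their tumour values, and this count adds no support. With the replicate number as a block, 8 members rose, as did 6125 of all probe sets while 6319 fell. Same-numbered arrays deviated together over the brighter probe sets (r = 0.25), but the labels give only a shared number. Low signal over background limits Ltf, Lcn2, Camp, both Mmp9 probe sets, Mpo, Elane and Mmp8, each with at least 1 normal array below it.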
